A study of Mus musculus with 24 samples.

Results

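The genes described here encode 10 subunits of Polycomb repressive complex 1 (PRC1): the E3 ligases Rnf2 and Ring1, the polyhomeotic proteins Phc1 and Phc2, the chromobox proteins Cbx2 and Cbx7, the PCGF ring finger proteins Pcgf1, Pcgf2 and Pcgf6, and the CpG-binding protein Kdm2b. They were taken by symbol from a list of PRC1 subunits, and all 10 were found among the 54242 symbols of the deposited table. All 10 were also among the 16447 genes tested, those whose log2(TPM + 1) averaged 0.5 or more across the 24 libraries. TPM is a transcript level scaled to transcript length and to the same total in every library. The expression of these subunits was read in CGR8 cells, a mouse embryonic stem cell (ESC) line, of which the rescue version carries a PiggyBac transgene that expresses the Rsl24d1 open reading frame when doxycycline is added and was kept as a puromycin-selected pool. Rsl24d1 encodes a protein of pre-60S ribosomal particles, and the study asked how its depletion changes gene expression in ESCs. Cells received either a pool of non-targeting siRNAs (si-CTL) or a pool of siRNAs against Rsl24d1 (si-Rsl24d1), without doxycycline (no rescue) or with it (rescue). Libraries labelled day 0 came from cells kept in serum and LIF, and those labelled day 4 from cells given 10 nM retinoic acid (RA) for 4 days after transfection. The study's methods describe the RA cultures as without LIF, and the series' labels differ from them on this point. LIF may therefore also differ between the days. The 8 groups held 3 libraries each, which the series' design calls independent. Collection of day 0 cells is given as 72 h after transfection in the protocol and as 48 h in the sample descriptions. The no-rescue libraries are labelled as empty vector and the rescue libraries as RSL24D1 overexpression, so the rescue comparison joins the transgene with doxycycline and the 2 cannot be told apart.

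PRC1 represses developmental genes in ESCs by placing ubiquitin on a C-terminal lysine of histone H2A (H2AK119ub1), a reaction that RNF2 (also RING1B) or RING1 carries out with a PCGF partner. In canonical complexes PCGF2 or BMI1 joins a CBX protein, which reads the H3K27me3 mark left by PRC2, and a PHC protein, whose sterile alpha motif can polymerise and compacts chromatin. Variant complexes hold RYBP or YAF2 in place of CBX: PCGF1 works with KDM2B, which binds unmethylated CpG sites, and PCGF6 works with MGA, MAX and L3MBTL2 and represses germline genes in ESCs.

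The promoters of 4 members are shown because these genes carry the largest differences below: Phc1 between day 0 and day 4, Phc2 and Pcgf6 after si-Rsl24d1 at day 0, and Cbx7 between the siRNA effects at the 2 times. Each sequence is the 250 bases before the RefSeq transcription start (GRCm38.p6), written 5′ to 3′ on the gene's strand, with CG dinucleotides, the sites KDM2B reads when unmethylated, in capitals. Phc1 lies at chr6:122340228-122340477 on the minus strand, Phc2 at chr4:128654452-128654701 on the plus strand, Cbx7 at chr15:79932647-79932896 on the minus strand and Pcgf6 at chr19:47050907-47051156 on the minus strand.
Phc1: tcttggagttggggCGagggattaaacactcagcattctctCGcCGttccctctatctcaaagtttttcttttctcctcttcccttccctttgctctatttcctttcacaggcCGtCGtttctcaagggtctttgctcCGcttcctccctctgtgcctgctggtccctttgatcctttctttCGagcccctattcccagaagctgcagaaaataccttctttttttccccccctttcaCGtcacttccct
Phc2: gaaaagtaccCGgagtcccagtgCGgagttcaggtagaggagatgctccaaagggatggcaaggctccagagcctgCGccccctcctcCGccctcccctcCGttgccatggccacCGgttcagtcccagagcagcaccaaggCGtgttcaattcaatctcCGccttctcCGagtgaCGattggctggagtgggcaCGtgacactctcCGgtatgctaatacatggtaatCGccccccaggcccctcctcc
Cbx7: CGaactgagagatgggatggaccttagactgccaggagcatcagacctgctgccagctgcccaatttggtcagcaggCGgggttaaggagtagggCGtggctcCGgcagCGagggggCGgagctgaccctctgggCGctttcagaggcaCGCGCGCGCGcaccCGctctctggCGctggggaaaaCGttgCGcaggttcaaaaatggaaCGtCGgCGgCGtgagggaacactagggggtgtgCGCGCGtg
Pcgf6: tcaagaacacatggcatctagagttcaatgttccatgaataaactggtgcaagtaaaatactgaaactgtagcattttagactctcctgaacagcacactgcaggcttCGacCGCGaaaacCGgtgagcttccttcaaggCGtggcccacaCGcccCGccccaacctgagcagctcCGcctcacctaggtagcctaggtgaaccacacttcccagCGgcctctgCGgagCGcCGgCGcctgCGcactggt
The 4 windows hold 8, 13, 23 and 14 CG dinucleotides, in the order printed, against a median of 6 over the 32851 windows of 27025 genes. RefSeq windows were matched for 8 of the 10 members, Cbx2 and Pcgf1 being the others, and 11 of their 13 windows were above that median, up to 38 for Kdm2b. The letters CACGTG, the E-box read by MAX-containing dimers, were searched on both strands and stood in 6.02% of all windows and in 2 member windows, those of Phc2 and Pcgf2. ATGCAAAT, the octamer read by POU5F1, stood in 1.6% of all windows and in a second window of Phc2, and the E2F letters TTTCCCGC and TTTGGCGC in 0.895% and 0.417% of all windows and in 0 member windows. The table measures RNA only, so these letters are a description of the sequence and not of binding.

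Rsl24d1 checked the labels. At day 0 without rescue it was at 148, 139.7 and 136 TPM in the si-CTL libraries and at 36.6, 37.9 and 32.7 TPM in the si-Rsl24d1 libraries, a log2 difference of -1.95 (SE 0.07, limma adjusted p = 3.24e-14). With rescue it was at 158, 149.7 and 147 TPM against 103, 96.1 and 121 TPM, still lower by 0.50 (limma adjusted p = 2.19e-05), and the table does not separate transgene from endogenous transcripts. At day 4 the label was not borne out at the RNA level: without rescue the values were 95.9, 101 and 96.7 TPM under si-CTL and 89.3, 96.3 and 99.8 TPM under si-Rsl24d1, a log2 difference of -0.04 (limma adjusted p = 0.66). The day 4 libraries are therefore called by their labels below, and their siRNA comparison is not one of libraries with low Rsl24d1 mRNA. ESC markers were present as labelled: in the day 0 si-CTL libraries without rescue the mean TPM was 1112 for Pou5f1, 184 for Nanog, 282 for Sox2 and 637 for Zfp42, and at day 4 in the matching group 8 of 10 ESC markers were lower, among them Pou5f1 by 1.10 (limma adjusted p = 4.22e-15), and 2 higher, Nanog (0.79) and Dppa5a (1.03). The 8 RA response genes summed to 18.9 to 23.0 TPM over the 12 day 0 libraries and to 51.6 to 71.6 TPM over the 12 day 4 libraries. Between 23415 and 26428 symbols were above 0 in a library. Replicate 1 of the day 4 group labelled si-Rsl24d1 without rescue stood apart from replicates 2 and 3. Its 10 PRC1 genes summed to 429.7 TPM against 486.4 and 494.2 TPM. Its scaling factor over all genes, by median of ratios, was also lower, 0.997 against 1.096 and 1.085. Several results below are also given without this day 4 replicate. Replicate 3 of the day 0 si-Rsl24d1 group with rescue also stood apart, its sum being 742.4 TPM against 667.2 and 663.8 TPM. The table holds no read counts, so the depth behind each value is unknown, and the spread between the 3 libraries of a group is the error used throughout.

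At day 0 without rescue, si-Rsl24d1 changed 6 of the 10 PRC1 genes. Phc2, Phc1 and Pcgf1 rose and Pcgf6, Pcgf2 and Cbx7 fell, while the catalytic genes Rnf2 and Ring1, Cbx2 and Kdm2b did not pass the test. A gene was called at a limma adjusted p below 0.01 over all genes tested, and 30.4% of those genes passed in this comparison, 14.3% higher and 16.1% lower. Phc2 was the only member also beyond 1.8-fold, a limit that 4.18% of all genes passed together with the p. The median log2 difference was -0.07 over the 10 genes and -0.01 over all genes. With rescue, 3 of 10 passed, Phc2 higher and Pcgf6 and Cbx7 lower, against 13.7% of all genes. At day 4, 4 of 10 were higher in the libraries labelled si-Rsl24d1 without rescue (Cbx7, Phc2, Phc1 and Rnf2), where 30.9% of all genes passed, 24.9% higher and 6.04% lower. That count was 7 without replicate 1 of the latter group and 1 with only the groups compared in the fit. With rescue 1 of 10, Cbx7, was higher at day 4, where 5.87% passed. In these bulk libraries fewer cells of a type and less RNA per cell cannot be told apart. Log2 differences are of TPM + 1, which understates the change of low genes, and comparisons that share a group are not independent of each other. The plot of TPM by library shows the values behind these calls, and the plot of siRNA differences their sizes and intervals.

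**Figure D1:**
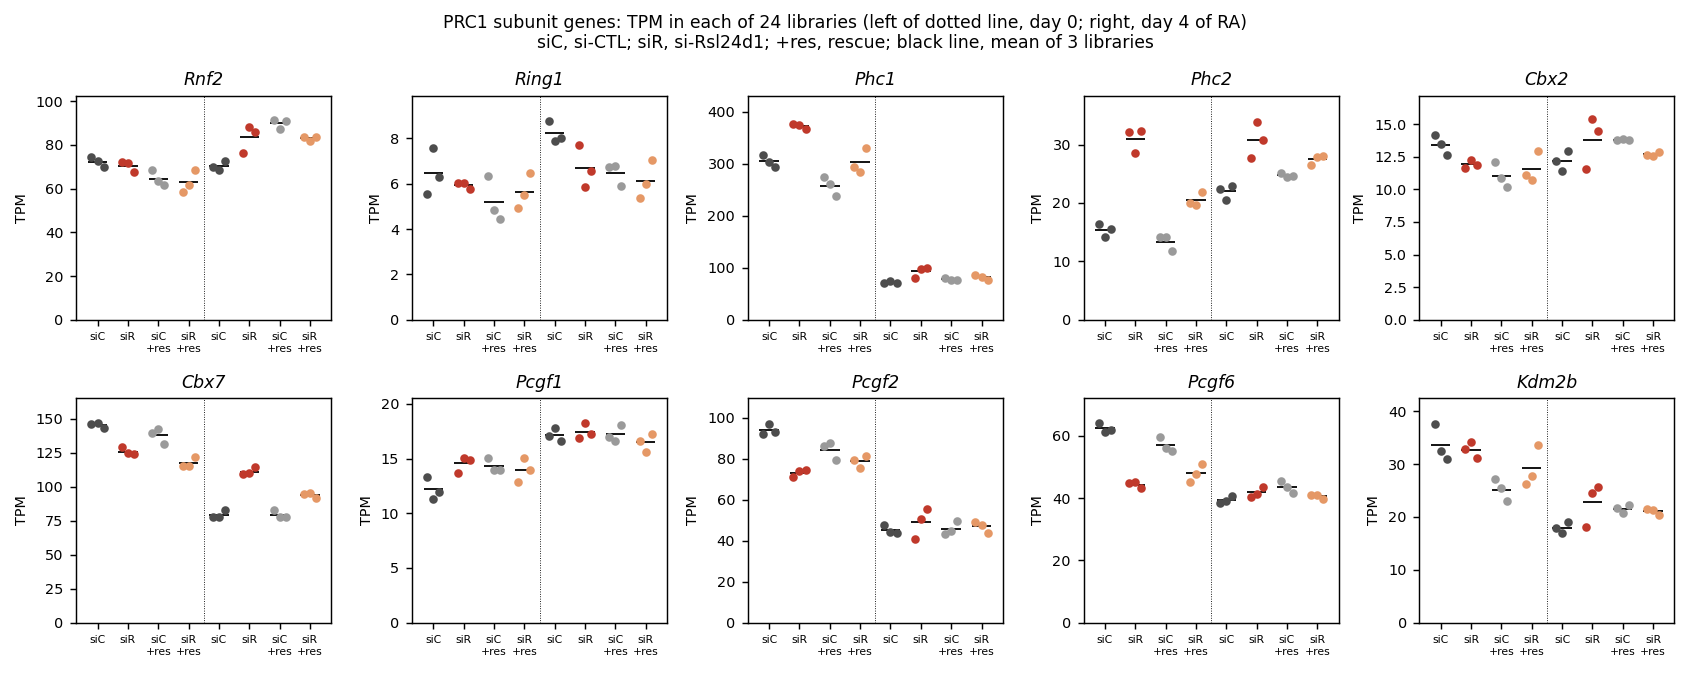
TPM (linear axis from 0) of the 10 PRC1 genes in the 24 libraries, with groups on the x axis (siC, si-CTL; siR, si-Rsl24d1; +res, rescue) and a dotted line between day 0 and day 4; points are libraries and black lines the means of 3. Phc1 lay between 238 and 377 TPM at day 0 and between 71.2 and 100.6 TPM at day 4, and Phc2 stood at 28.6 to 32.3 TPM in the day 0 si-Rsl24d1 libraries without rescue against 14.2 to 16.4 TPM in their controls.

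**Figure D2:**
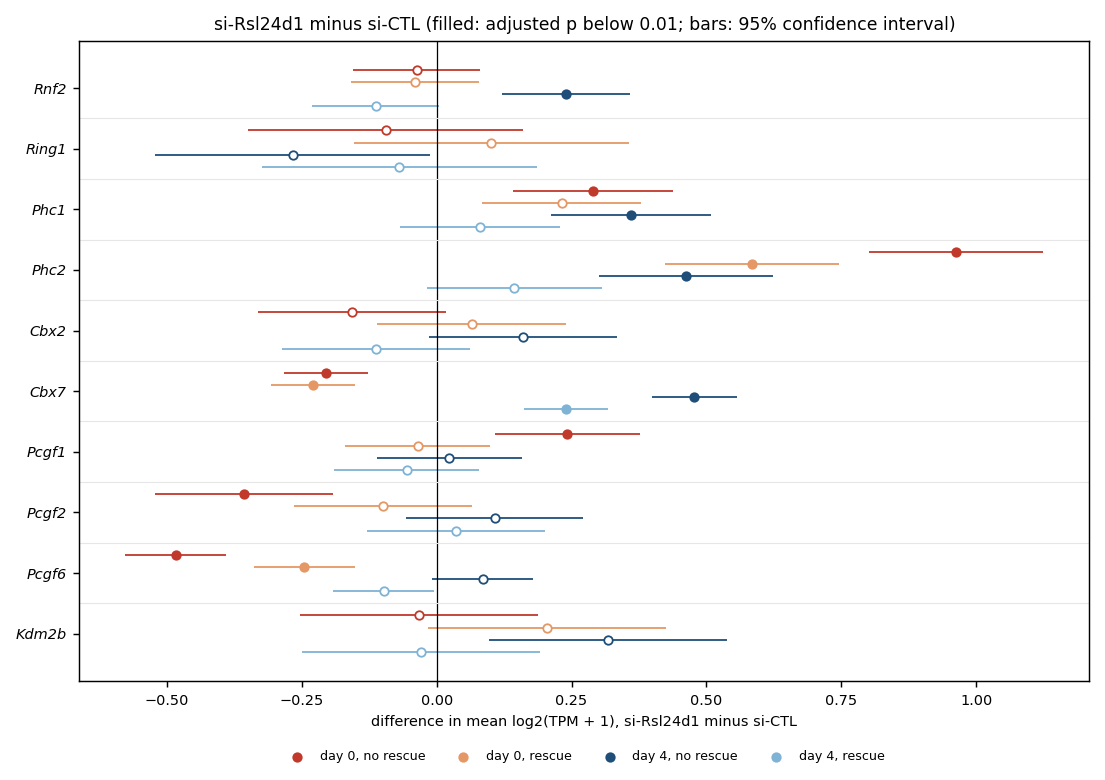
Difference in mean log2(TPM + 1), si-Rsl24d1 minus si-CTL, for each gene at each day and rescue state; bars are 95% confidence intervals from the limma fit and filled points have an adjusted p below 0.01. Phc2 has the largest difference, 0.96 at day 0 without rescue, and Cbx7 lies below 0 at day 0 and above 0 at day 4.

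The catalytic subunits did not pass the test at day 0. Rnf2 (chr1:151458004-151500955, minus strand, GRCm38, GENCODE vM21), the main H2AK119 ligase of ESCs, was at 74.4, 72.8 and 69.8 TPM in the day 0 si-CTL libraries and at 72.0, 71.7 and 67.6 TPM in the si-Rsl24d1 libraries. The groups overlapped, and the log2 difference was -0.04 with a 95% interval of -0.16 to 0.08. Ring1 (chr17:34020792-34024680, minus strand), its paralog, was less abundant by a factor of 7.97 to 15.7 over the 24 libraries, and at day 0 stood at 5.53, 7.56 and 6.27 against 6.02, 6.02 and 5.78 TPM (limma adjusted p = 0.574). Rnf2 made up 90.6% to 94.0% of the summed TPM of the pair in 7 groups and 88.8% to 90.0% in the day 4 si-CTL libraries without rescue. From day 0 to day 4 Rnf2 rose in 3 of the 4 conditions, by 0.24 to 0.47 on the log2 scale. In the fourth, si-CTL without rescue, it was at 69.9, 68.7 and 72.6 TPM at day 4 and the difference was -0.04 (limma adjusted p = 0.56), which under median of ratios scaling became 0.10 (limma adjusted p = 0.00374). The libraries labelled si-Rsl24d1 at day 4 held 76.5, 88.1 and 85.7 TPM, all above those controls, a difference of 0.24 (SE 0.06, limma adjusted p = 0.00218). That call was lost, with adjusted p from 0.0116 to 0.0183, without si-CTL replicate 2 or without si-Rsl24d1 replicate 2 or 3, and under median of ratios scaling, where the difference was 0.08 (adjusted p = 0.0284). With rescue the day 4 order was turned, 91.6, 87.2 and 91.1 TPM under si-CTL and 83.9, 81.7 and 83.7 TPM under si-Rsl24d1, but -0.11 did not pass (limma adjusted p = 0.217). Rescue itself went with higher Rnf2 in the day 4 si-CTL libraries, by 0.35 (SE 0.06, limma adjusted p = 0.00135), a call lost without replicate 1 of either group (adjusted p = 0.0113 and 0.0104). Ring1 ranged from 4.46 to 8.77 TPM and passed in 0 of the 12 pairwise comparisons, its largest difference being 0.32 from day 0 to day 4 under si-CTL without rescue (limma adjusted p = 0.0271), which passed under median of ratios scaling at 0.44 (adjusted p = 0.00357). Rnf2 overlaps Trmt1l on the opposite strand in the annotation, and whether quantification used strand is not given in the sources used here.

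Both polyhomeotic genes rose after si-Rsl24d1 at day 0. Phc2 (chr4:128654702-128752881, plus strand) was at 16.4, 14.2 and 15.6 TPM in the day 0 si-CTL libraries and at 32.1, 28.6 and 32.3 TPM in the si-Rsl24d1 libraries. Every si-Rsl24d1 library was above every control, a 1.95-fold difference on the TPM + 1 scale and 0.96 on the log2 scale (SE 0.08, limma adjusted p = 4.53e-09). Phc1 (chr6:122317731-122340561, minus strand), the most abundant of the 10 genes at day 0, rose from 317, 305 and 294 TPM to 377, 375 and 368 TPM, by 0.29 (SE 0.07, limma adjusted p = 0.00255). This smaller call was lost without si-CTL replicate 3 (0.26, adjusted p = 0.0145) or si-Rsl24d1 replicate 1 (0.28, adjusted p = 0.0103). With rescue at day 0, Phc2 was at 14.2, 14.2 and 11.7 TPM under si-CTL and at 20.1, 19.7 and 21.8 TPM under si-Rsl24d1, a difference of 0.59 (SE 0.08, limma adjusted p = 1.21e-05). Phc1 stood at 275, 261 and 238 against 294, 285 and 331 TPM, a difference of 0.23 that did not pass (limma adjusted p = 0.0234) although no libraries overlapped, and that passed without replicate 1 of the day 4 group labelled si-Rsl24d1 without rescue (adjusted p = 0.00485). Compared within the si-Rsl24d1 libraries of day 0, both were lower with rescue, Phc2 by 0.57 (SE 0.08, limma adjusted p = 3.01e-05) and Phc1 by 0.30 (SE 0.07, limma adjusted p = 0.00403). The Phc1 call rested on single libraries, being lost in 5 of 6 fits that left out 1 library (adjusted p = 0.0105 to 0.0283). Whether the siRNA effect itself differed with rescue was tested for Phc2, and the change of -0.38 did not pass (limma adjusted p = 0.0491) except under median of ratios scaling (-0.39, adjusted p = 0.00593).

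From day 0 to day 4 the PHC paralogs went opposite ways. Phc1 fell in all 4 conditions, by 1.72 to 2.07 on the log2 scale, and stood at 71.2, 73.7 and 71.6 TPM in the day 4 si-CTL libraries without rescue (limma adjusted p = 4.09e-15). Phc2 rose over the same interval in 3 conditions, to 22.4, 20.6 and 22.9 TPM in the same libraries (log2 difference 0.49, limma adjusted p = 1.39e-05). In the remaining condition, si-Rsl24d1 without rescue, Phc2 had been at 28.6 to 32.3 TPM at day 0 and was at 27.6, 33.8 and 30.8 TPM at day 4, a difference of -0.02 with a 95% interval of -0.18 to 0.15. At day 4 the libraries labelled si-Rsl24d1 were above si-CTL for both genes, by 0.46 for Phc2 (SE 0.08, limma adjusted p = 0.000129) and, at 81.2, 98.4 and 101 TPM, by 0.36 for Phc1 (SE 0.07, limma adjusted p = 0.000529). The siRNA effect on Phc2 was smaller at day 4 than at day 0, by 0.50 (SE 0.11, limma adjusted p = 0.0011), while for Phc1 the 2 effects differed by 0.07 with an interval of -0.14 to 0.28. With rescue at day 4, Phc2 stood at 25.2, 24.4 and 24.6 against 26.4, 27.8 and 28.1 TPM and Phc1 at 80.4, 75.8 and 76.6 against 87.0, 82.7 and 76.8 TPM, and neither passed (limma adjusted p = 0.256 and 0.531). Within each library the ratio of Phc1 to Phc2 TPM was 18.9 to 21.4 in day 0 si-CTL libraries without rescue, 11.4 to 13.1 after si-Rsl24d1, 14.5 to 15.2 after si-Rsl24d1 with rescue, and 2.74 to 3.58 in all 12 day 4 libraries. By mean TPM the order of the 8 groups for Phc2 began with the si-Rsl24d1 libraries without rescue of day 0 and day 4, which overlapped, and ended with the 2 day 0 si-CTL groups, which also overlapped.

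**Figure D3:**
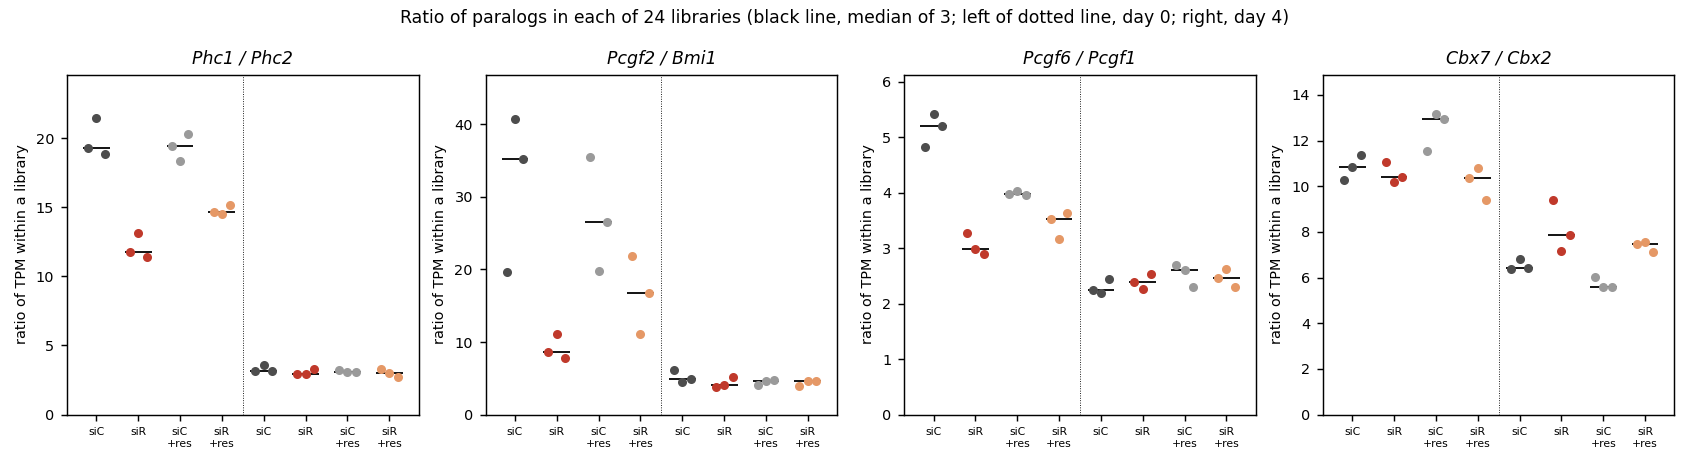
Ratio of the TPM of 2 paralogs within each of the 24 libraries (linear axes from 0), for Phc1 to Phc2, Pcgf2 to Bmi1, Pcgf6 to Pcgf1 and Cbx7 to Cbx2; points are libraries, black lines medians of 3, and the dotted line parts day 0 from day 4. The Phc1 to Phc2 ratio is at 11.4 to 13.1 after si-Rsl24d1 at day 0, below the 18.9 to 21.4 of its controls, and at 2.74 to 3.58 in the day 4 libraries.

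Of the chromobox genes, Cbx7 (chr15:79915807-79971119, minus strand), which encodes the main H3K27me3 reader of canonical PRC1 in ESCs, changed direction between the 2 times. At day 0 it was at 146, 146 and 143 TPM under si-CTL and at 129, 125 and 124 TPM under si-Rsl24d1, lower in 3 of 3 libraries by 0.21 (SE 0.04, limma adjusted p = 0.000161). With rescue the difference was also present, 139, 143 and 132 TPM against 115, 115 and 122 TPM, a log2 difference of -0.23 (SE 0.04, limma adjusted p = 0.000129), and the change with rescue was -0.02 with an interval of -0.13 to 0.09. From day 0 to day 4 Cbx7 fell in all 4 conditions, most under si-CTL without rescue, to 77.5, 77.7 and 83.0 TPM, by 0.86 (SE 0.04, limma adjusted p = 1.26e-13). In the libraries labelled si-Rsl24d1 the fall between the days was 0.18, and Cbx7 stood at 109, 109.9 and 114 TPM at day 4, above every control by 0.48 (SE 0.04, limma adjusted p = 1.68e-08). With rescue the day 4 values were 82.7, 77.5 and 77.5 against 94.2, 95.2 and 91.7 TPM, a difference of 0.24 (SE 0.04, limma adjusted p = 0.000231). The siRNA effect at day 4 exceeded that at day 0 by 0.68 (SE 0.05, limma adjusted p = 7.13e-09) without rescue and by 0.47 (SE 0.05, limma adjusted p = 2.89e-06) with it. In the order of group means, 6 neighbouring pairs of the 7 did not overlap, and the lowest pair, the day 4 si-CTL groups without and with rescue, did. Cbx2 (chr11:119022962-119031270, plus strand), a chromobox paralog that compacts nucleosomes, was at 14.2, 13.5 and 12.6 against 11.6, 12.3 and 11.9 TPM at day 0 (limma adjusted p = 0.146) and at 12.2, 11.4 and 13.0 against 11.6, 15.4 and 14.5 TPM at day 4 (limma adjusted p = 0.125). Without replicate 1 of the day 4 libraries labelled si-Rsl24d1, the latter difference went from 0.16 to 0.27 (adjusted p = 0.00487). Cbx2 passed only from day 0 to day 4 under si-CTL with rescue, at 0.30 (limma adjusted p = 0.0032), a call lost without replicate 2 or 3 of the day 0 group (adjusted p = 0.0118 and 0.0222). Cbx7 overlaps Apobec3 on the opposite strand in the annotation.

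Pcgf2 (chr11:97688823-97700497, minus strand), also MEL18, the PCGF partner of canonical PRC1, fell after si-Rsl24d1 at day 0 from 91.9, 96.8 and 92.9 TPM to 71.0, 73.9 and 74.3 TPM, with no overlap, by 0.36 on the log2 scale (SE 0.08, limma adjusted p = 0.00107). With rescue the groups overlapped, at 86.2, 87.7 and 79.6 against 79.3, 75.7 and 81.3 TPM, and the difference of -0.10 did not pass (limma adjusted p = 0.424). A change of the siRNA effect with rescue, 0.26, did not pass either (limma adjusted p = 0.224). Pcgf2 fell from day 0 to day 4 in all 4 conditions, by 0.58 to 1.04, to 47.6, 44.2 and 43.7 TPM under si-CTL without rescue (limma adjusted p = 5.49e-10). The day 4 libraries labelled si-Rsl24d1 spread over 40.9, 50.8 and 55.5 TPM and overlapped their controls. Their difference of 0.11 (limma adjusted p = 0.28) became 0.23 without replicate 1 (adjusted p = 0.00479) and -0.05 under median of ratios scaling. The siRNA effect differed between the times by 0.46 (SE 0.11, limma adjusted p = 0.0024), which under median of ratios scaling was 0.31 and not past the test (adjusted p = 0.0177).

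The subunits of variant PRC1 went different ways at day 0. Pcgf6 (chr19:47033617-47050906, minus strand), which defines the variant complex that represses germline genes, fell from 64.2, 61.2 and 61.9 TPM to 44.8, 45.0 and 43.2 TPM. Every si-Rsl24d1 library was below every control, by 0.48 (SE 0.04, limma adjusted p = 3.51e-08), the largest fall among the 10 genes. With rescue it was at 59.7, 56.2 and 55.3 against 45.3, 47.9 and 50.8 TPM, lower by 0.25 (SE 0.04, limma adjusted p = 0.000419), and the lessening of 0.24 with rescue did not pass (limma adjusted p = 0.0324) except under median of ratios scaling (0.22, adjusted p = 0.00516). At day 4 Pcgf6 was at 38.4, 39.0 and 40.6 TPM under si-CTL without rescue, lower than at day 0 by 0.65 (SE 0.04, limma adjusted p = 1.27e-10). Under si-Rsl24d1 without rescue, where Pcgf6 had been at 43.2 to 45.0 TPM on day 0, it was at 40.4, 41.4 and 43.6 TPM on day 4, a difference of -0.08 (limma adjusted p = 0.107). The siRNA effects at the 2 times differed by 0.57 (SE 0.06, limma adjusted p = 8.46e-07). Day 4 levels in all 4 groups lay between 38.4 and 45.6 TPM.

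Pcgf1 (chr6:83077869-83080855, plus strand), the PCGF partner of KDM2B, rose at day 0 from 13.3, 11.3 and 11.9 TPM to 13.7, 15.1 and 14.9 TPM, by 0.24 (SE 0.06, limma adjusted p = 0.00479). The lowest si-Rsl24d1 library was only just above the highest control, and the call was lost without si-CTL replicate 2 or 3 or si-Rsl24d1 replicate 2 or 3 (adjusted p = 0.0198 to 0.0352). With rescue it was at 15.0, 13.9 and 14.0 against 12.8, 15.1 and 14.0 TPM, a difference of -0.04 (limma adjusted p = 0.764). Pcgf1 rose from day 0 to day 4 in all 4 conditions, by 0.23 to 0.46, to 15.6 to 18.3 TPM over the 12 day 4 libraries. Under median of ratios scaling the day call was lost in the 2 rescue conditions (0.12 and 0.16). Kdm2b (chr5:122870665-122989823, minus strand), which brings this complex to CpG islands, was at 37.6, 32.4 and 30.9 against 32.9, 34.3 and 31.1 TPM at day 0, a difference of -0.03 with an interval of -0.25 to 0.19. It fell from day 0 to day 4 in 3 of 4 conditions, by 0.45 to 0.87, to 17.8, 17.0 and 19.0 TPM under si-CTL without rescue (limma adjusted p = 4.35e-07), and under si-CTL with rescue the difference of -0.21 did not pass (limma adjusted p = 0.0813). At day 4 the libraries labelled si-Rsl24d1 held 18.2, 24.5 and 25.7 TPM, replicate 1 lying among the controls, and the difference of 0.32 (limma adjusted p = 0.0192) was 0.47 without it (adjusted p = 0.000389). Kdm2b overlaps Rnf34 and the antisense gene A930024E05Rik on the opposite strand. The ratio of Pcgf6 to Pcgf1 was 4.82 to 5.41 in day 0 si-CTL libraries without rescue, 2.90 to 3.27 after si-Rsl24d1 and 2.19 to 2.69 over the 12 day 4 libraries.

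Ordered by mean TPM over the 8 groups, the genes fell into a few patterns. Phc1 ran from 373 TPM (SD 4.65, n = 3) after si-Rsl24d1 at day 0 without rescue to 72.2 TPM (SD 1.35, n = 3) in the day 4 si-CTL libraries without rescue, and every day 0 library lay above every day 4 library. Pcgf2 kept the same division, from 93.9 TPM (SD 2.56, n = 3) in the day 0 si-CTL libraries without rescue to 45.2 TPM (SD 2.10, n = 3) in their day 4 counterpart, and its 4 day 4 groups overlapped one with the next. Pcgf6 was highest in the 2 day 0 si-CTL groups, at 62.4 and 57.1 TPM, and from the day 0 si-Rsl24d1 group without rescue (44.4 TPM) to the lowest day 4 group (39.3 TPM) each neighbour overlapped the next. Pcgf1 had the opposite order, its 4 day 4 groups at 16.5 to 17.5 TPM all above the day 0 groups, each of which, at 12.2 to 14.6 TPM, overlapped the next. Kdm2b, from 33.7 to 17.9 TPM, had 1 separate neighbouring pair of 7, where the day 4 si-CTL group without rescue came last. Rnf2, from 90.0 to 62.9 TPM, also had 1, between the 3 upper day 4 groups and the others. For Ring1 the day 4 si-CTL group without rescue (8.23 TPM, SD 0.48, n = 3) stood above 7 groups that overlapped one with the next, and for Cbx2, between 13.8 and 11.0 TPM, no neighbouring groups separated. Beside the fitted tests these orders are a description.

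Rescue was read directly by comparing libraries with and without doxycycline. In the day 0 si-CTL libraries 0 of 10 members passed in limma, against 0.0122% of all genes. The differences ran from -0.40 for Kdm2b to 0.22 for Pcgf1, with a median of -0.18 against -0.12 over all genes. An unadjusted p below 0.05 was found for 8 of 10, and the share of all genes at that p was not counted. Without replicate 1 of the day 4 group labelled si-Rsl24d1 without rescue, which enters this comparison only through the shared estimate of the spread, 3 members passed as lower with rescue, Phc1 (-0.24), Cbx2 (-0.27) and Kdm2b (-0.40). The share of all genes passing in that fit was not counted either, so these 2 counts cannot be read as particular to the members. Under median of ratios scaling of all 24 libraries, 0 of all genes passed in this comparison. In the day 0 si-Rsl24d1 libraries the 2 PHC genes passed, as given above, against 15.3% of all genes. In the day 4 si-CTL libraries 1 of 10, Rnf2, passed against 10.2%. In the day 4 libraries labelled si-Rsl24d1, Cbx7 was the 1 member to pass, lower with rescue by 0.24 (SE 0.04, limma adjusted p = 0.000335), against 5.17%. Median of ratios scaling shifted the median of all genes by 0.12 and 0.10 in the day 0 comparisons and by -0.10 in the day 4 si-CTL comparison. The share of calls that were higher with rescue went from 20.1% to 52.0% at day 0 under si-Rsl24d1, from 86.8% to 51.7% at day 4 under si-CTL and from 18.1% to 41.2% at day 4 under si-Rsl24d1.

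From day 0 to day 4, 7 of 10 members passed under si-CTL without rescue: Phc1, Pcgf2, Kdm2b, Cbx7 and Pcgf6 fell and Phc2 and Pcgf1 rose. This is near the 60.9% of all genes that passed, 24.1% higher and 36.7% lower. Beyond 1.8-fold as well were 4 members, Phc1, Pcgf2, Kdm2b and Cbx7, each lower, against 15% of all genes. Under si-Rsl24d1 without rescue 6 passed (background 55.8%) and 1, Phc1, was beyond 1.8-fold (14.1%). Under si-CTL with rescue 8 passed (59.2%) and 2, Phc1 and Pcgf2, were beyond 1.8-fold (15.6%), and under si-Rsl24d1 with rescue 8 passed (58.1%) and 1, Phc1, was beyond 1.8-fold (14.9%). Phc1, Cbx7 and Pcgf2 were lower and Pcgf1 higher in 4 of 4 conditions, Pcgf6 and Kdm2b lower and Phc2 and Rnf2 higher in 3, and Cbx2 higher in 1. The 10 genes together summed to 739 to 781 TPM in the day 0 si-CTL libraries without rescue and to 378 to 391 TPM at day 4, most of the difference being Phc1. Markers of other cells moved with this comparison: 5 of 6 fibroblast or feeder markers were higher and 1 lower (summed TPM 37.7 to 47.1 at day 0 and 107 to 115 at day 4), 6 of 7 extraembryonic endoderm markers were higher and 1 lower (30.8 to 36.8 and 55.8 to 66.0 TPM), and 8 of 10 ESC markers were lower. Of 5 tested neural progenitor markers 3 were lower and 1 higher. The summed TPM of all 7 listed was 93.5 to 101 at day 0 and 37.2 to 37.6 at day 4. The part of these marker shifts in the PRC1 values was not tested. Median of ratios scaling moved the median of all genes by 0.11 under si-CTL without rescue and by -0.11 under si-CTL with rescue, and the share of calls higher at day 4 from 39.7% to 50% and from 62.2% to 50.8%. The plot of day differences shows the 4 conditions side by side.

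**Figure D4:**
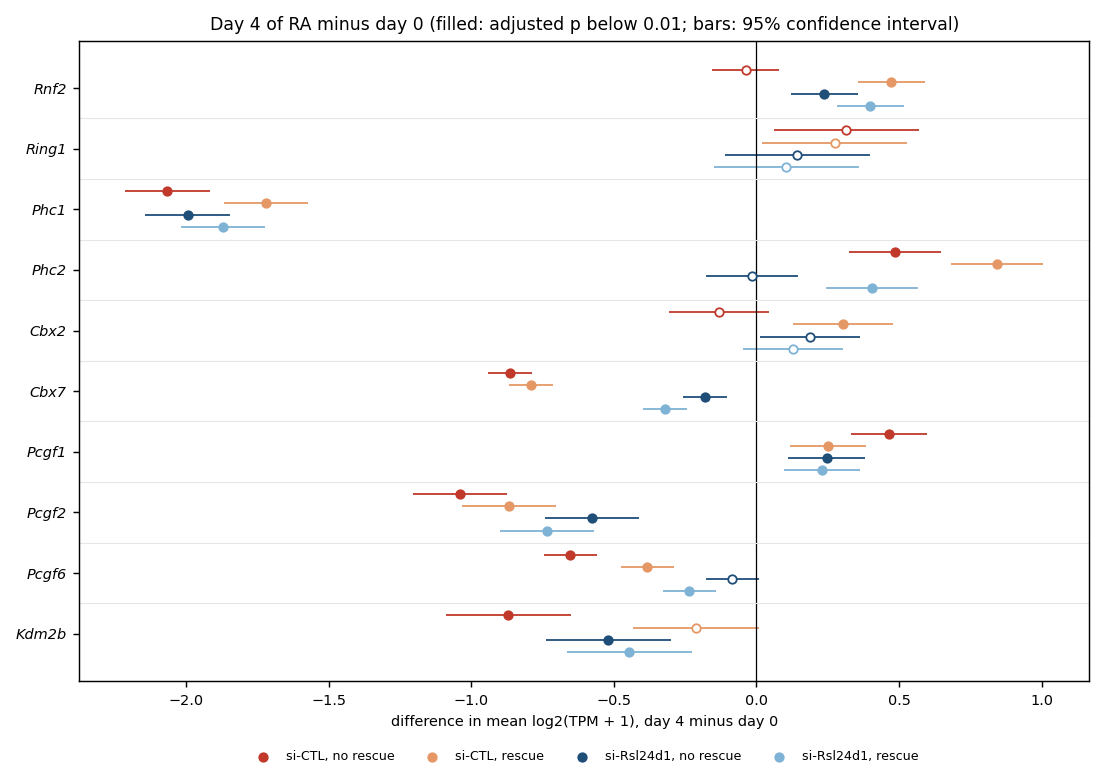
Difference in mean log2(TPM + 1), day 4 of RA minus day 0, for each gene in the 4 conditions, each siRNA with and without rescue; bars are 95% confidence intervals from the limma fit and filled points have an adjusted p below 0.01. Phc1 lies at -2.07 to -1.72 in the 4 conditions, and the Cbx7 points of the 2 si-Rsl24d1 conditions (-0.18 and -0.32) stand apart from those of si-CTL (-0.86 and -0.79).

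The difference of the siRNA effect between day 4 and day 0 passed for 5 of 10 members without rescue (Cbx7, Pcgf6, Phc2, Pcgf2 and Rnf2), against 30.9% of all genes, and for 2 of 10 with rescue (Cbx7 and Phc2), against 9.95%. Its counterpart between rescue and no rescue at day 0 passed for 0 of 10 in limma, against 2.09%, and for 2 (Phc2 and Pcgf6) under median of ratios scaling. An unadjusted p below 0.05 was found for 4 of 10, and the share of all genes at that p was not counted. The siRNA comparison of day 4 without rescue was shifted as a whole, the median of all genes being 0.13, and median of ratios scaling moved that median by -0.13 and the share of its calls that were higher from 80.5% to 50.3%. For the difference between the times the median moved by -0.13 and the share from 71.4% to 53.7%. With rescue the shares went from 39.8% to 59.1% at day 4 and from 31.4% to 47.6% for the difference between the times. Relative to that shift Cbx7 stayed 0.32, Phc2 0.31 and Phc1 0.20 higher at day 4 (adjusted p = 8.56e-07, 0.000404 and 0.00167). Markers of other cells moved with this day 4 comparison. The summed TPM of 7 fibroblast or feeder markers was 107 to 115 under si-CTL and 209 to 279.5 under si-Rsl24d1, with 4 of the 6 tested passing higher, and that of 9 extraembryonic endoderm markers was 55.8 to 66.0 and 104 to 144, with 7 of 7 passing higher. Of all genes 24.9% passed higher. With rescue the sums were 132 to 152 against 170.0 to 187 and 68.0 to 78.3 against 98.9 to 103. No marker of either list was at 0 in a day 4 library, and Lum was at 0 in 10 and Dcn in 3 of the 12 day 0 libraries. In the day 4 comparison without rescue, RA response genes summed to 51.8 to 59.3 TPM under si-CTL and 65.5 to 71.6 TPM under si-Rsl24d1. Of the 7 tested, 5 passed higher and 0 lower. Neural progenitor markers summed to 37.2 to 37.6 and 49.4 to 60.6 TPM, with 2 of 5 passing higher and 0 lower. Of 10 ESC markers 2 passed higher and 0 lower. The part of these cells in the PRC1 values was not tested.

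Shares of each family's summed TPM place these genes beside their paralogs. In the PHC family (Phc1, Phc2 and Phc3), Phc1 held 93.2% to 94.0% in the day 0 si-CTL libraries without rescue and 91.0% to 91.8% after si-Rsl24d1, while Phc2 went from 4.39% to 4.95% to 7.00% to 7.99%. At day 4 Phc1 held 72.0% to 74.6% and Phc2 20.8% to 23.0% of the si-CTL libraries without rescue, and the family sum, 315 to 340 TPM at day 0, was 97.8 to 99.5 TPM. The 6 PCGF genes shared their total more evenly. Pcgf2 held 44.1% to 48.2% and Pcgf6 30.5% to 31.1% at day 0 under si-CTL, and after si-Rsl24d1 they held 39.0% to 40.6% and 23.6% to 24.6%, the groups not overlapping. The parts of Pcgf3 and Bmi1 were larger after si-Rsl24d1, 15.5% to 16.6% against 8.44% to 9.99% for Pcgf3 and 3.61% to 5.23% against 1.18% to 2.24% for Bmi1. Both are paralogs outside the 10 genes, and both rose, Bmi1, the other canonical PCGF, by 1.15 (SE 0.20, limma adjusted p = 9.77e-05) and Pcgf3, of a variant complex, by 0.68 (SE 0.09, limma adjusted p = 5.06e-06). The ratio of Pcgf2 to Bmi1 was 19.7 to 40.8 under si-CTL, 7.76 to 11.1 after si-Rsl24d1, 11.1 to 21.9 after si-Rsl24d1 with rescue and 4.53 to 6.09 in the day 4 si-CTL libraries without rescue. The PCGF sum, 199 to 208 TPM under si-CTL and 182 to 184 TPM after si-Rsl24d1, moved less than its parts. Of the summed TPM of Cbx2, Cbx6, Cbx7 and Cbx8, Cbx7 held 79.1% to 81.2% under si-CTL and 79.4% to 80.6% after si-Rsl24d1, overlapping groups. At day 4 it held 75.4% to 76.9% under si-CTL and 78.2% to 81.6% in the libraries labelled si-Rsl24d1, here with no overlap. With rescue these shares were 72.8% to 74.5% against 77.2% to 78.5%. These shares are descriptions of TPM, which is per length, and carry no test of their own.

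**Figure D5:**
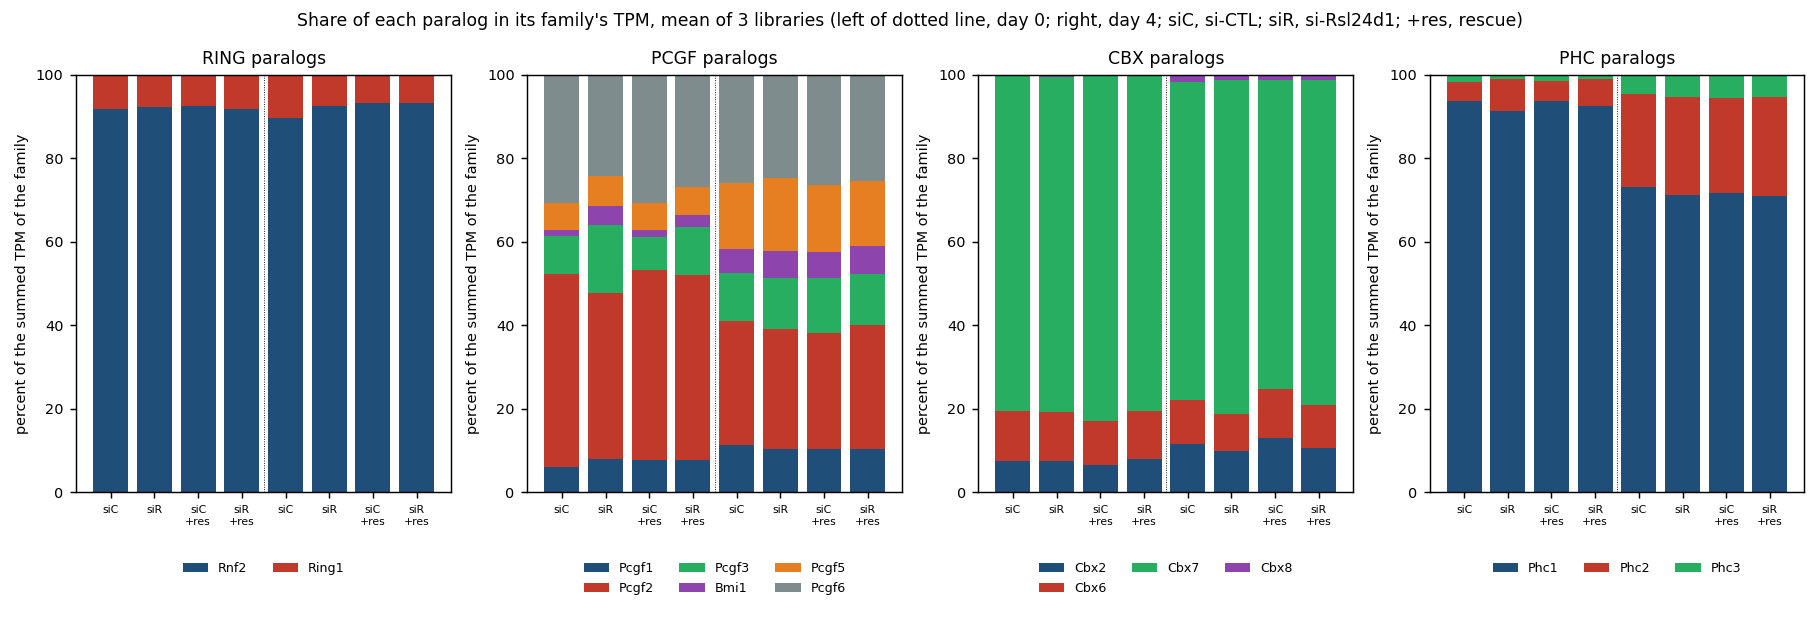
Share of the summed TPM of a gene family (percent, from 0 to 100) held by each of its genes, for Rnf2 and Ring1, the PHC and PCGF families and 4 CBX genes, as the mean of 3 libraries in each of the 8 groups. Phc1 takes most of the PHC bar at day 0 (91.0% to 94.0% over libraries without rescue) and less at day 4, and in the PCGF bar the parts of Pcgf2 and Pcgf6 are smaller, and those of Pcgf3 and Bmi1 larger, after si-Rsl24d1 at day 0.

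Other PRC1 genes, 31 tested of 32 listed, gave 7 higher and 8 lower at day 0 without rescue, with a median of -0.01 equal to that of all genes. Of all genes 14.3% were higher and 16.1% lower. The PCGF6 partners Mga (-0.48, limma adjusted p = 0.00313) and L3mbtl2 (-0.35, limma adjusted p = 0.000178), fell as Pcgf6 itself did, as did Wdr5 (-0.31, limma adjusted p = 3.38e-06), a WD40 adaptor of that and other complexes. Yaf2, which takes the place of CBX in variant PRC1, rose by 0.52 (limma adjusted p = 2.79e-06). Of 8 H2AK119 deubiquitinases, which remove the mark PRC1 writes, 0 passed in limma. An unadjusted p below 0.05 was found for 2, and the share of all genes at that p was not counted. Among 13 tested genes of PRC2, the H3K27 methyltransferase complex, 6 fell and 1 rose, with a median of -0.22 against -0.01. The largest falls were of its accessory subunits Epop (-0.74, limma adjusted p = 1.6e-07), Phf19 (-0.57, limma adjusted p = 0.000762) and Jarid2 (-0.50, limma adjusted p = 0.00076), and the histone chaperone Rbbp7 was the 1 to rise, by 0.16 (limma adjusted p = 0.00332). Of the 10 ESC markers 8 were lower in the same comparison, their sum being 5672 to 5821 TPM under si-CTL and 4675 to 4699 TPM after si-Rsl24d1, and the part of this in the PRC1 and PRC2 values was not tested. With rescue the counts were 4 higher and 2 lower for other PRC1 genes and 0 higher and 2 lower for PRC2. Of all genes 13.7% passed there in either direction.

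Between day 0 and day 4 under si-CTL without rescue, 16 of the 31 other PRC1 genes fell and 7 rose, and 7 of 13 PRC2 genes fell and 3 rose, where 36.7% of all genes fell and 24.1% rose. The largest falls among the former were of L3mbtl2 (-1.51), the E2F partner Tfdp1 (-1.13) and the Kdm2b paralog Kdm2a (-1.12), and the largest rises of Scml2 (1.83), Bmi1 (1.25) and Cbx8 (1.05). In PRC2, Epop (-2.31), Jarid2 (-1.62) and the core subunit Eed (-0.98) fell most. These 9 differences had limma adjusted p of 1.35e-05 or less. At day 4 in the libraries labelled si-Rsl24d1 without rescue, 12 of the 31 other PRC1 genes were higher and 1 lower, where 24.9% of all genes were higher and 6.04% lower. The PCGF1 complex scaffold Bcor (0.84) and Phc3 (0.53) were higher and Scml2 was lower (-0.64), all 3 with limma adjusted p of 0.000631 or less. Under median of ratios scaling the counts were 8 higher and 3 lower, where 4808 of 16447 genes passed, 50.25% of them higher. Without replicate 1 of that group they were 18 and 2, and the share of all genes in that fit was not counted. Deubiquitinases counted 3 higher and 0 lower of 8 (1 and 0 when rescaled, 5 and 0 without that replicate) and PRC2 5 higher and 0 lower of 13 (4 and 0, and 9 and 0), led by Lcor (0.66, limma adjusted p = 0.000566), Aebp2 (0.59, limma adjusted p = 9.43e-05) and Epop (0.41, limma adjusted p = 0.000332). With rescue, 1 other PRC1 gene was higher and 1 lower, where 5.87% of all genes passed in either direction.

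Genes known as targets of PRC1 were read beside its subunits. Of 18 germline genes known as targets of the PCGF6 complex, 3 were higher and 5 lower at day 0 after si-Rsl24d1, where Pcgf6 was lower, with a median of -0.02. Of all genes 14.3% were higher and 16.1% lower in that comparison. Hormad1, a meiotic chromosome axis gene, rose by 0.90 (limma adjusted p = 8.27e-10) and Taf7l, a germ cell TFIID subunit, by 0.67 (limma adjusted p = 1.08e-05), while Majin, a meiotic telomere gene (-0.51, limma adjusted p = 0.000473), Stag3, a meiotic cohesin (-0.47, limma adjusted p = 0.00321) and Stk31 (-0.39, limma adjusted p = 0.00301) fell. From day 0 to day 4 under si-CTL without rescue, 15 of the 18 rose and 0 fell, where 24.1% of all genes rose and 36.7% fell. Their median was 0.79 against -0.10 over all genes. The largest rises were of Dazl (3.40), a germ cell RNA-binding protein, Smc1b (2.52), a meiotic cohesin, and Mov10l1 (1.57), a piRNA helicase, each with a limma adjusted p of 1.94e-10 or less. Under si-Rsl24d1 without rescue, si-CTL with rescue and si-Rsl24d1 with rescue the counts were 12, 15 and 14 higher and 0 lower. In these conditions 55.8%, 59.2% and 58.1% of all genes passed in either direction. In the day 4 libraries labelled si-Rsl24d1 without rescue 10 of the 18 were lower and 1 higher than in si-CTL, where 6.04% of all genes were lower and 24.9% higher. The median was -0.38 against 0.13. Under median of ratios scaling 12 were lower and 0 higher, where 4808 of 16447 genes passed, 50.25% of them higher. Without replicate 1 of that group 8 were lower and 1 higher, with a median of -0.32 against 0.16. The share of all genes passing in that fit was not counted. In the main fit Tex101 (-0.77), Dazl (-0.71) and the germ cell ADP/ATP carrier Slc25a31 (-0.61) were lowest, each with a limma adjusted p of 2.48e-05 or less. With rescue 3 of the 18 were lower and 0 higher at day 4, where 5.87% of all genes passed in either direction.

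Of 30 developmental genes known as Polycomb targets only 15 were expressed enough to be tested, so their counts leave out the genes that stayed near 0. The filter's mean included the day 4 libraries labelled si-Rsl24d1 without rescue. There the 30 genes had their highest mean log2(TPM + 1), 1.14 to 1.28, so the filter could favour genes raised in that group. At day 0 after si-Rsl24d1, 3 of the 15 were higher and 2 lower, near the shares of all genes, 14.3% higher and 16.1% lower. Without replicate 1 of the day 4 group labelled si-Rsl24d1 without rescue, 5 were higher and 2 lower. That library enters this comparison only through the shared estimate of the spread, and the share of all genes in that fit was not counted. Among the 15, Hoxb9 rose by 0.53 (limma adjusted p = 0.000544) and Hand1, a mesoderm and trophoblast factor, by 0.47 (limma adjusted p = 2.91e-05). Pax6 (-0.78, limma adjusted p = 1.05e-06), a homeobox factor of eye and neural tissue, fell. At day 4 without rescue 11 of the 15 were higher and 0 lower in the libraries labelled si-Rsl24d1, where 24.9% of all genes were higher and 6.04% lower. The median was 0.49 against 0.13. Under median of ratios scaling 10 were higher and 1 lower, where 4808 of 16447 genes passed, 50.25% of them higher. Without replicate 1 of that group 10 were higher and 0 lower, with a median of 0.57 against 0.16. The share of all genes passing in that fit was not counted. In the main fit the largest differences were in Hand1 (1.13), Gata6 (0.99) and Hoxb9 (0.84), each with a limma adjusted p of 8.92e-06 or less. Gata6 is also one of the extraembryonic endoderm markers that moved with this comparison. With rescue 2 of the 15 were higher and 0 lower at day 4, where 5.87% of all genes passed in either direction.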

How the data were processed

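Bulk RNA-seq libraries of 24 samples, 3 in each of 8 groups given by the labels, were read from 1 table of log2(TPM + 1) values for 54242 symbols, which the authors deposited. Per the labels, poly-A selected RNA was sequenced, whereas the study's methods name a total RNA kit. The submitters' processing notes name STAR 2.7.8a, Salmon 1.4.0 and GRCh38, a human build, while the study's methods give mouse GRCm38 with other versions, and the values alone do not decide between them. The TPM add up to the same total in each library, so counts and depth are not kept and the count test that the study's methods name could not be used. Log2(TPM + 1) was fitted in limma 3.58.1 (R 4.3.3) with 8 group means, all 24 libraries sharing 1 estimate of the spread, an intensity trend and no replicate term, over the 16447 genes with a mean of at least 0.5. Tests were two-sided with Benjamini-Hochberg adjustment over those genes, and a gene was called at an adjusted p below 0.01, with calls beyond 1.8-fold counted apart. Intervals are at 95%. An exact permutation test of 3 against 3 libraries cannot go below p = 0.1. The series' design calls the triplicates independent, but it does not say whether they were separate transfections, so p-values measure the spread between these libraries. No pair of libraries was identical (highest correlation 0.991). Alternatives were 0.1 or 2 added to the TPM, no filter or a mean of at least 1.5, median of ratios scaling, only the groups compared, a replicate block, and each library of the groups compared left out in turn, with libraries outside them added after seeing the data. All 10 subunits were named, with paralogs where a family is described, and from each other list up to 3 called genes in each direction whose libraries did not overlap, by size of change. The members and lists were chosen with earlier results of these data known. Gene coordinates come from GENCODE vM21 on GRCm38, and the fit was tested on simulated data. A few genes of these lists count in the totals but are not reported here by name.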

Additional observations from a re-analysis of the deposited data

Results flagged for a closer look

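The siRNA effect (si-Rsl24d1 minus si-CTL) differed between day 4 and day 0 for 5 PRC1 genes without rescue and for 2 of those genes with rescue, by the interaction term of the limma fit with Benjamini-Hochberg adjustment over all genes. Without rescue the effect was higher at day 4 by 0.68 on the log2 scale for Cbx7 (SE 0.05, limma adjusted p = 7.13e-09), by 0.57 for Pcgf6 (SE 0.06, adjusted p = 8.46e-07), by 0.46 for Pcgf2 (SE 0.11, adjusted p = 0.0024) and by 0.28 for Rnf2 (SE 0.08, adjusted p = 0.00863). It was lower at day 4 for Phc2, the difference being -0.50 (SE 0.11, adjusted p = 0.0011). With rescue the difference was 0.47 for Cbx7 (SE 0.05, limma adjusted p = 2.89e-06) and -0.44 for Phc2 (SE 0.11, adjusted p = 0.00766). The Rnf2 term was lost in 9 of 12 fits that left out 1 library (adjusted p = 0.0114 to 0.0292), as was the Phc2 term with rescue (0.0125 to 0.0237). Rsl24d1 mRNA was lower after si-Rsl24d1 at day 0 and not at day 4. Time, RA, LIF (withdrawn per the study's methods) and the level of Rsl24d1 mRNA therefore differ together in these terms and cannot be told apart.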

How the results depend on the processing

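Each of 150 test values (10 genes in 15 comparisons) kept its side of the threshold with 0.1 or 2 added to the TPM and with the filter at a mean of 1.5. Without a filter 148 of 150 did so, with the replicate block 148, with only the groups compared 134 and under median of ratios scaling 133. A change of direction was counted only where a value passed in the main or the altered fit. Values that passed in neither could change sign and still count as kept. The numbers of members called, out of 10, moved by more than 1.5 times in the following fits. With only the groups compared in the fit, which leaves fewer libraries to estimate the spread, they went from 3 to 1 for the siRNA effect at day 0 with rescue, from 4 to 1 at day 4 without rescue and from 1 to 0 at day 4 with rescue. In the same fits the rescue effect under si-Rsl24d1 went from 2 to 1 at day 0 and from 1 to 0 at day 4, the day effect under si-Rsl24d1 without rescue from 6 to 3, and the siRNA by day interaction from 5 to 3 without rescue and from 2 to 1 with it. Median of ratios scaling took the rescue effect at day 4 under si-CTL from 1 to 2 and the siRNA by rescue interaction at day 0 from 0 to 2 (Phc2 at -0.39 and Pcgf6 at 0.22). Of the values that passed in either fit it reversed 1, Rnf2 from day 0 to day 4 under si-CTL without rescue, to 0.10 (limma adjusted p = 0.00374). The cause of these scaling differences was not tested. Without a filter the siRNA by day interaction with rescue went from 2 to 1. Smaller moves with only the groups compared were from 6 to 5 for the siRNA effect at day 0 without rescue and from 8 to 7 for the day effect under si-Rsl24d1 with rescue. Under median of ratios scaling they were from 3 to 4 and from 4 to 3 for the siRNA effects at day 0 with rescue and at day 4 without it, from 2 to 3 for the rescue effect at day 0 under si-Rsl24d1, from 7 to 9 and from 8 to 7 for the day effects under si-CTL without and with rescue, from 6 to 7 and from 8 to 7 for those under si-Rsl24d1, and from 5 to 4 and from 2 to 3 for the siRNA by day interactions without and with rescue.

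Leaving out 1 library of the groups compared at a time gave 1028 of 1080 values on the same side of the threshold, 42 lost calls and 10 gained ones. No value that passed in either fit changed direction. Some that passed in neither did, such as the siRNA effect on Ring1 at day 0 without rescue (-0.19 to 0.01). Members called then ranged from 4 to 6 for the siRNA effect at day 0 without rescue, 3 to 3 with rescue, 3 to 7 at day 4 without rescue and 1 to 1 with rescue. The range of 3 to 7 reached 7 without replicate 1 of the day 4 libraries labelled si-Rsl24d1, where Cbx2, Pcgf2 and Kdm2b were gained. For the rescue effect the ranges were 0 to 0 (day 0, si-CTL), 1 to 3 (day 0, si-Rsl24d1), 0 to 1 (day 4, si-CTL) and 1 to 2 (day 4, si-Rsl24d1). For the day effect they were 7 to 8 under si-CTL and 5 to 7 under si-Rsl24d1 without rescue, and 7 to 9 and 7 to 8 with rescue. The interactions gave 4 to 7 and 1 to 2 for siRNA by day without and with rescue, and 0 to 0 for siRNA by rescue.

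Libraries outside the groups compared enter only through the shared estimate of the spread, and leaving each of these out, an alternative chosen after seeing the data, kept 2507 of 2520 values on the same side, with 9 lost and 4 gained calls. Of the 4 gained calls, all without replicate 1 of the day 4 group labelled si-Rsl24d1 without rescue, 3 took the rescue effect at day 0 under si-CTL from 0 to 3 (range 0 to 3) and 1 took the siRNA effect at day 0 with rescue from 3 to 4 (range 3 to 4).

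Replicate numbers showed no general pairing of samples. Deviations from the group means correlated at -0.0173 on average over 84 pairs of libraries with the same number. Over 168 pairs with different numbers the average was 0.00865. In no comparison were all 3 same-numbered pairs above 0.1. The highest same-numbered pair was at 0.169 and the highest pair with different numbers at 0.279. Such averages cannot exclude a batch shared by part of the groups. With the replicate block, the siRNA by day interaction gave 4 members without rescue (Rnf2 lost, adjusted p = 0.0141) and 1 with rescue (Phc2 lost, adjusted p = 0.0133), and it changed no other call.

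The table keeps TPM alone, so counting error cannot be given and 3 libraries a group set the precision. TPM of a pool of cells does not separate isoforms, transgene from endogenous Rsl24d1, or cell types, and says nothing of PRC1 protein or of H2AK119ub1. Rsl24d1 mRNA was not lower in the day 4 libraries labelled si-Rsl24d1.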
